A study of Cricetiscus sungorus with 24 samples.

Results

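The genes described here are 10 immediate early genes, *Fos*, *Fosb*, *Jun*, *Junb*, *Jund*, *Egr1*, *Atf3*, *Ier2*, *Btg2* and *Zfp36*, measured in the kidney of Djungarian hamsters. They were taken by gene symbol from the 2 count tables of the study, and each gene is represented by its transcript with the highest total count in a table. All 10 genes had a row in experiment 2, among 15842 genes listed. In experiment 1, 7 of the 10 genes had a row among 9681 genes, and *Fos*, *Atf3* and *Ier2* had none. The tables together listed 15960 genes. Since the table of experiment 1 held only transcripts with a total above 0, the 3 missing genes had no count in any of its 12 libraries.

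Experiment 1 asked how photoperiod changes the kidney and used adult males. Of these, 4 were kept in long photoperiod with 16 h of light per day (LP), 4 were held in short photoperiod (SP) with 8 h of light for 12 weeks (SP12wk), and 4 were held in SP for 28 weeks (SP28wk). Experiment 2 asked what prolactin does to the kidney in SP and used adult females, all moved from LP to SP for 8 weeks. Of these, 6 received the vehicle, a mixture of dimethyl sulfoxide and saline (SAL), and 6 received 18 µg of ovine prolactin in that vehicle (PRL), by injection into the body cavity in mid-light phase on 3 consecutive days. No group carried an engineered allele. Sex, experiment and flow cell cannot be told apart, so levels were compared only within an experiment. Animals of both experiments were killed in the early hours of the light phase by cervical dislocation followed by exsanguination, and kidneys were weighed and measured and then stored frozen. The sources used here state neither the time from the last injection to death nor that from death to freezing. Injections fell in mid-light phase and death in the early hours of the light phase. An injection on the day before death would thus have preceded it by most of a day.

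Immediate early genes are transcribed within minutes of a stimulus without new protein synthesis, because the factors that switch them on, such as SRF with its ELK partners and CREB, are already in the cell and are activated by kinases of the MAP kinase cascade. Their mRNAs are short lived. Several encode transcription factors: FOS and JUN proteins pair to form AP-1, and EGR1 and ATF3 bind DNA as well, whereas ZFP36 binds AU-rich mRNAs and speeds their decay and BTG2 slows proliferation and promotes deadenylation. In kidney they are known to respond to growth factors, hormones, ischemia and the handling of tissue.

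Most members were read only a few times per library. With 1 transcript per gene, a library held 174053 to 756523 counts in experiment 2 and 15688 to 57585 in experiment 1. A single count was therefore worth 1.32 to 5.75 CPM (counts scaled to a fixed library total) in experiment 2 and 17.4 to 63.7 CPM in experiment 1. The 10 members together had 14 to 54 counts in the SAL libraries and 17 to 69 in the PRL libraries. In experiment 1 they had 3 to 11 counts in LP, 1 to 6 in SP12wk and 1 to 22 in SP28wk. All values come from hamster reads that matched mouse transcripts, so that expression and similarity to the mouse sequence cannot be told apart in a level. Levels of the members were not ranked against each other, and transcript lengths were not used. In other gene lists, mean CPM served to choose which genes to name. In these bulk samples, fewer cells of a type and less RNA per cell cannot be told apart.

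The transcripts were NM_010234.3 for *Fos*, NM_010591.2 for *Jun*, NM_008416.3 for *Junb*, NM_007913.5 for *Egr1*, NM_007498.3 for *Atf3*, NM_010499.4 for *Ier2*, NM_007570.2 for *Btg2* and NM_011756.4 for *Zfp36*. *Jund* had 2 transcripts, NM_001286944.1 and NM_010592.5, with the same counts in every library, 109 counts in experiment 2 and 25 in experiment 1. *Fosb* was the only member whose counts were divided between transcripts. In experiment 2, NM_008036.2 had 20.6 counts over the 12 libraries and NM_001347586.1 had 13.4, and the first is used here. In experiment 1 the only *Fosb* count, in SP28wk 4, was on NM_001347586.1.

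None of the 9 immediate early genes tested differed between PRL and SAL hamsters after correction over all genes, beside 0% of all genes. Since the time from the last injection to death is not stated and may have been most of a day, a brief response that had already passed would not be seen. The gene with the lowest unadjusted P value was *Egr1*, whose mean level was 7.51 CPM in PRL and 14.8 CPM in SAL, and most of its SAL counts came from 2 animals. *Zfp36* had the largest positive difference in CPM (a mean of 16.0 CPM for SAL and 23.4 CPM for PRL), and *Btg2* and *Junb* had lower means in PRL, but the groups overlapped for every member.

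**Figure D1:**
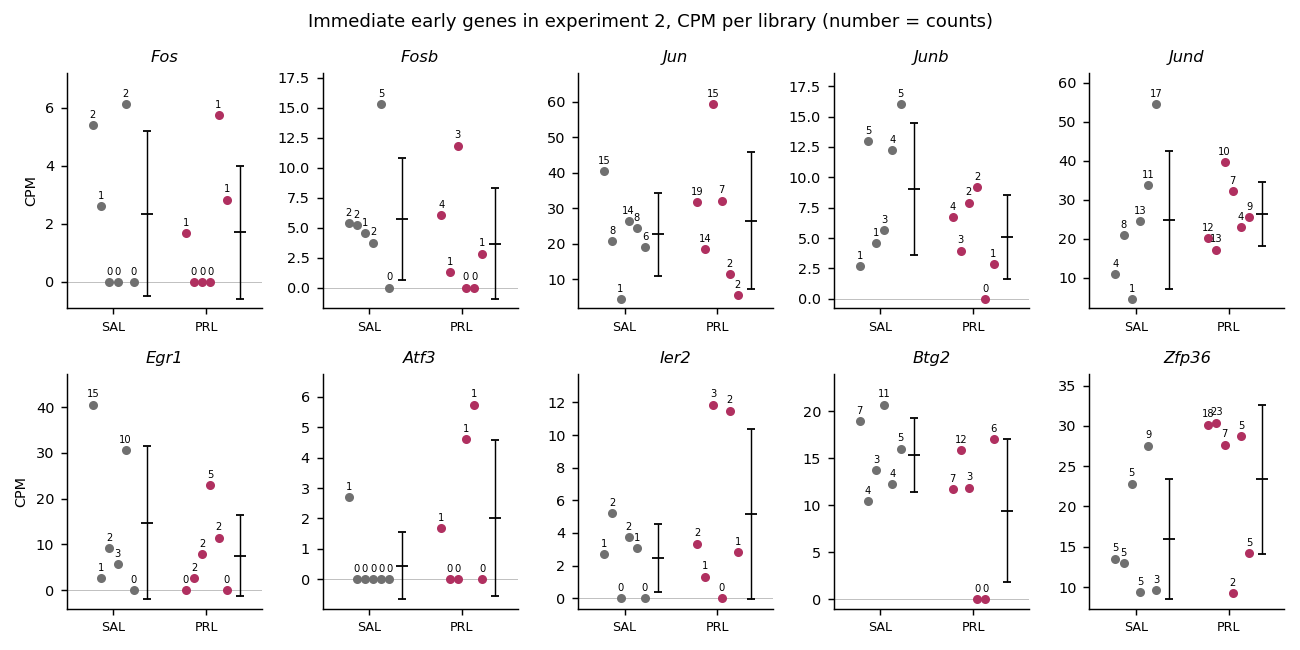
CPM of each immediate early gene in the 6 SAL and 6 PRL libraries of experiment 2, ordered by replicate number within a group, with the estimated count printed above each point and the mean ± SD at the right of each group. SAL and PRL values overlapped for all 10 genes, and *Egr1* reached 40.5 and 30.6 CPM in SAL 1 and SAL 5 but at most 9.13 CPM in the other SAL libraries.

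Among the AP-1 genes, *Fos*, the prototype of the class, was close to the limit of detection. It had counts in 3 of 6 SAL libraries and 3 of 6 PRL libraries, 5 and 3 counts in all. Levels ran from 0 to 6.12 CPM with a median of 1.30 in SAL, and from 0 to 5.75 CPM with a median of 0.837 in PRL. SAL 1 and SAL 5, with 2 counts each, held 4 of the 5 SAL counts. *Fosb*, another partner of JUN proteins, had counts in 5 of 6 SAL libraries and 4 of 6 PRL libraries. Its level was between 0 and 15.3 CPM in SAL (median 4.88) and between 0 and 11.9 CPM in PRL (median 2.08). The highest SAL value was that of SAL 5, with 5 counts, and the highest PRL value that of PRL 3, with 3 counts.

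*Jun*, which encodes the major partner of FOS, was detected in all 12 libraries, with 52 counts in SAL and 59 in PRL. Its level ran from 4.57 to 40.5 CPM with a median of 22.6 in SAL, and from 5.67 to 59.3 CPM with a median of 25.2 in PRL. SAL 3 and PRL 6 were lowest and PRL 3 was highest, and the PRL range enclosed most of the SAL range. *Jund*, the JUN family member usually expressed without stimulation, was also detected in all 12 libraries, with 54 counts in SAL and 55 in PRL. *Jund* levels were 4.57 to 54.4 CPM (median 22.6) in SAL and 17.2 to 39.5 CPM (median 24.3) in PRL. The lowest and the highest *Jund* levels were both in SAL, in SAL 3 and SAL 6. *Junb*, which opposes JUN at some promoters, had 19 counts in SAL and 12 in PRL and was at 0 only in PRL 5. Its level was 2.70 to 16.0 CPM (median 8.94) in SAL and 0 to 9.20 CPM (median 5.33) in PRL. All PRL values lay below the 3 highest SAL values, those of SAL 2, SAL 5 and SAL 6.

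*Egr1*, a zinc finger transcription factor induced by the same signals as *Fos*, was the most uneven member. SAL 1 had 15 counts (40.5 CPM, 95% Clopper-Pearson interval 22.7 to 66.9) and SAL 5 had 10 counts (30.6 CPM, 14.7 to 56.3). The other SAL libraries had 1, 2, 3 and 0 counts, which is 2.60 CPM in SAL 2, 9.13 in SAL 3, 5.64 in SAL 4 and 0 in SAL 6. In PRL, levels were 0 in PRL 1 and PRL 6, 2.64 CPM in PRL 2, 7.91 in PRL 3, 23.0 in PRL 4 and 11.5 in PRL 5, from 11 counts in all. The interval of SAL 1 lay above those of SAL 2, SAL 4 and SAL 6 of its own group, and the intervals cover counting error only. *Atf3*, a stress-induced factor, had 1 count in SAL and 3 in PRL, in 4 different libraries, and was not tested. *Ier2*, a small nuclear protein gene, had 6 counts in SAL and 9 in PRL. It ranged from 0 to 5.20 CPM (median 2.88) in SAL and from 0 to 11.9 CPM (median 3.09) in PRL, where PRL 3 and PRL 5 were highest.

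The genes of RNA decay and growth arrest were detected in every SAL library. *Btg2* was between 10.4 and 20.7 CPM (median 14.9) in all 6 SAL libraries, from 34 counts. In PRL it ran from 0 to 17.0 CPM (median 11.8), from 28 counts. It was at 0 in PRL 4 and PRL 5, the 2 PRL libraries with the lowest totals, and 10.4 CPM or more in every other library. *Zfp36* was between 9.40 and 27.5 CPM (median 13.3) in SAL, from 32 counts, and between 9.20 and 30.4 CPM (median 28.2) in PRL, from 60 counts. Of the PRL libraries, 4 lay at 27.7 CPM or above, whereas PRL 6 was at 14.2 CPM and PRL 4, at 9.20 CPM, lay below every SAL library.

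The edgeR quasi-likelihood fit was run on 10696 genes, 9 of them members. None of the 9 passed a Benjamini-Hochberg adjusted P of 0.05, and 0% of all genes did. At an unadjusted P under 0.05 stood 1 of the 9 members, *Egr1*, beside 4.88% of all genes. Its log2 fold change was -1.54 ± 0.70 (SE), a fold of 0.344 with a 95% interval from 0.130 to 0.910 (unadjusted P = 0.0324, edgeR adjusted P = 0.993). The exact permutation test of the difference in mean CPM, PRL minus SAL, gave -7.25 CPM (two-sided P = 0.359). Without SAL 1 the difference was -2.09 CPM (exact permutation P = 0.719), and without SAL 5 it was -4.08 CPM (exact permutation P = 0.652). The log2 fold change was -0.90 without SAL 1 and -1.25 without SAL 5, and its adjusted P was between 0.405 and 1.00 over all alternatives of the fit that gave one.

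For the other tested members the intervals were wide. *Zfp36* had a log2 fold change of 0.64 ± 0.36, with a fold interval from 0.938 to 2.60, and a difference in mean CPM of 7.40 (exact permutation P = 0.123). That difference had an exact permutation P of 0.0455 when PRL 4 was left out, at 10.2 CPM. *Junb* had a log2 fold change of -0.81 ± 0.56 (fold interval 0.260 to 1.26) and a difference of -3.93 CPM (exact permutation P = 0.165). *Btg2* had -0.49 ± 0.45 on the log2 scale (fold interval 0.383 to 1.33) and a difference of -5.92 CPM (exact permutation P = 0.130). *Jun* and *Jund* had log2 fold changes of 0.05 ± 0.39 and -0.10 ± 0.37, with fold intervals from 0.599 to 1.79 and from 0.556 to 1.57. For *Fos*, *Fosb* and *Ier2* the fold intervals ran from 0.159 to 2.21, from 0.258 to 1.83 and from 0.458 to 3.95. Changes within these intervals, in either direction, were not excluded at this depth. The median log2 fold change of the 9 members was -0.49, with 3 above and 6 below 0, beside a median of 0.03 over all genes tested. With 924 splits, the smallest P that the permutation test can give is 0.00216, and none of the 9 members had an exact P under 0.05.

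**Figure D2:**
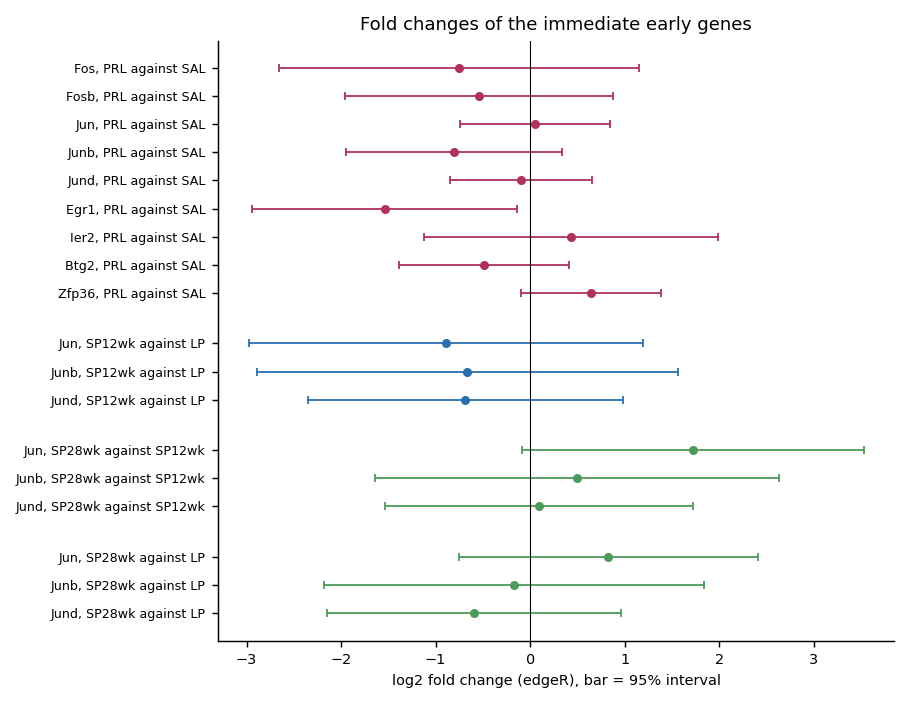
Log2 fold changes of the immediate early genes from edgeR, with points for the estimates and bars for 95% intervals, in red for PRL against SAL, in blue for SP12wk against LP and in green for both SP28wk comparisons. *Btg2* and *Zfp36* of experiment 1, with 3 counts or fewer in every group, are not drawn. Of the intervals drawn, that of *Egr1* in PRL against SAL, from -2.95 to -0.14, alone leaves out 0, and its adjusted P was 0.993.

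In experiment 1, none of the 5 immediate early genes tested differed between LP, SP12wk and SP28wk after correction, beside 0.0197% to 0.216% of all genes. *Jun* was lowest in SP12wk and *Junb* and *Zfp36* had their highest means in LP, but these levels rest on single counts in many libraries. *Jund* had 5, 3, 2 and 0 counts in LP 1 to LP 4, or 235, 168, 111 and 0 CPM. It had 0, 1, 4 and 1 counts in SP12wk 1 to SP12wk 4, or 0, 63.7, 201 and 28.3 CPM. In SP28wk 1 to SP28wk 4 it had 1, 0, 2 and 6 counts, or 39.5, 0, 57.1 and 104 CPM. Each group held a library at 0, and the means were 129 ± 99.6 (SD, n = 4), 73.2 ± 89.0 and 50.2 ± 43.2 CPM.

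*Jun* had 0, 3, 2 and 1 counts in LP (0, 168, 111 and 38.8 CPM). In SP12wk it had 1, 1, 0 and 1 counts (40.9, 63.7, 0 and 28.3 CPM), and in SP28wk 0, 4, 1 and 10 counts (0, 166, 28.6 and 174 CPM). The mean was 79.5 ± 74.9 CPM in LP, 33.2 ± 26.6 in SP12wk and 92.0 ± 90.6 in SP28wk (SD, n = 4). SP28wk 4, the library with most counts in experiment 1, gave 10 of the 15 *Jun* counts of its group. *Junb* had 0, 3, 1 and 1 counts in LP (0, 168, 55.5 and 38.8 CPM), 0, 0, 1 and 2 in SP12wk (0, 0, 50.2 and 56.5 CPM) and 0, 0, 2 and 4 in SP28wk (0, 0, 57.1 and 69.5 CPM). A library at 0 stood in every group for *Junb* too.

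The other listed members had at most 4 counts in the 12 libraries. *Btg2* had 1 count each in LP 2, LP 3, SP12wk 4 and SP28wk 3. *Zfp36* had 1 count each in LP 2, LP 3 and LP 4 and in SP28wk 4, and none in SP12wk, where a count of 0 allows a level of up to 31.4 CPM over the group. *Egr1* had no count in LP, which allows up to 36.2 CPM, 1 count in SP12wk 4 and 2 counts in SP28wk 3. *Fosb* had 1 count, in SP28wk 4. Each of these 4 genes had 3 counts or fewer in every group, so that their levels are not compared as folds. The fit tested *Btg2* and *Zfp36*, whose fitted values depend on the prior count and enter the medians over 5 members, and the medians over *Jun*, *Junb* and *Jund* stand beside these.

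**Figure D3:**
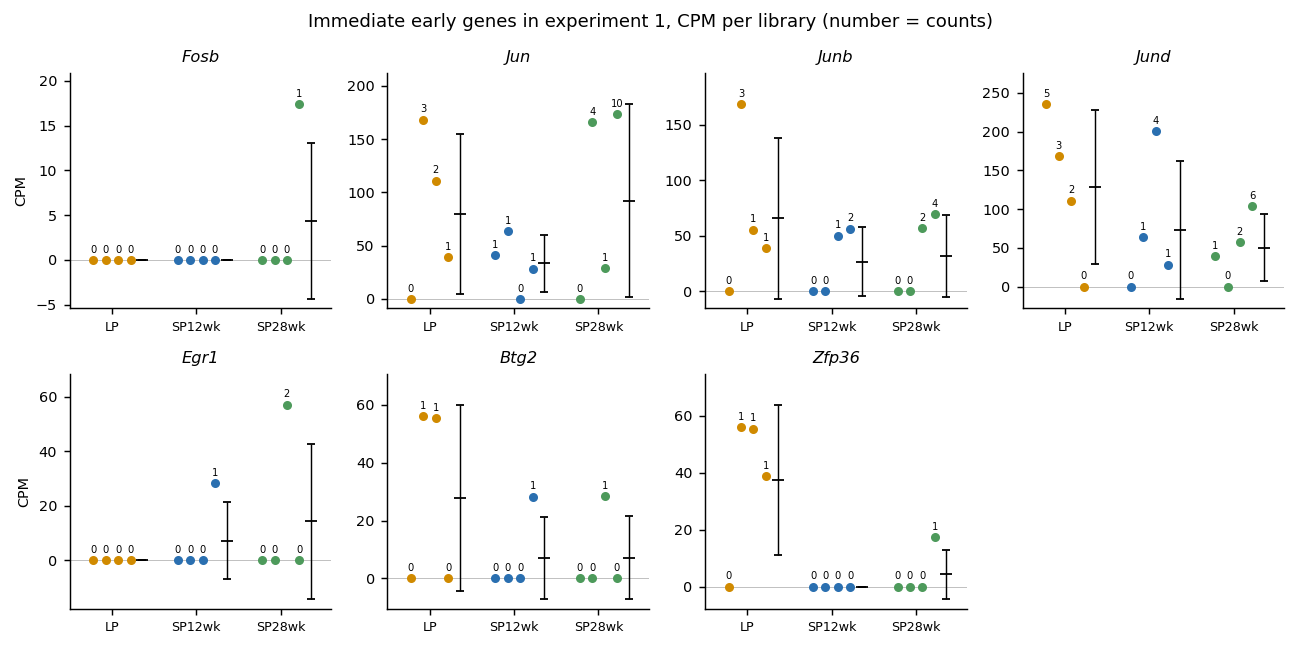
CPM of the 7 immediate early genes listed in experiment 1 in 4 LP, 4 SP12wk and 4 SP28wk libraries, ordered by replicate number within a group, with the count printed above each point and the mean ± SD at the right of each group. Every gene had a library at 0 in each group, and single counts stood between 17.4 and 63.7 CPM.

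The fit of experiment 1 covered 5086 genes, among them *Jun*, *Junb*, *Jund*, *Btg2* and *Zfp36*. In SP12wk against LP, none of the 5 members and 0.0197% of all genes passed an adjusted P of 0.05. *Zfp36* alone of the 5 had an unadjusted P under 0.05 (P = 0.0473, edgeR adjusted P = 0.637), beside 7.27% of all genes, and the exact permutation P of its mean CPM was 0.143. All 5 members had lower fitted levels in SP12wk, with a median log2 fold change of -0.75 (-0.69 over *Jun*, *Junb* and *Jund*) beside 0.00 over all genes, and *Junb* was higher instead when LP 2 was left out. The log2 fold changes were -0.89 ± 1.06 for *Jun*, -0.67 ± 1.13 for *Junb* and -0.69 ± 0.85 for *Jund*. From 3 counts in SP12wk and 6 in LP, the ratio of the pooled *Jun* levels was 0.434 with a counting interval from 0.0702 to 2.03. For *Junb* it was 0.521, from 0.0809 to 2.68.

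In SP28wk against SP12wk, none of the 5 members and 0.138% of all genes passed the adjusted threshold. No member and 6.1% of all genes had an unadjusted P under 0.05. *Jun* had the largest log2 fold change of those given, 1.72 ± 0.92 (edgeR adjusted P = 0.902), and the ratio of its pooled levels was 3.36 with a counting interval from 0.951 to 18.1. The difference in mean *Jun* level was 58.8 CPM (exact permutation P = 0.343). The median log2 fold change was 0.50 over the 5 members, 4 above and 1 below 0, and 0.50 over *Jun*, *Junb* and *Jund*. Over all genes the median was 0.16, with 58.3% above 0. The fit placed *Jund* above and *Btg2* below 0, but their mean levels differed by -23.0 and 0.0768 CPM. The value of *Zfp36* rests on 1 count in SP28wk. Leaving out SP28wk 4 turned the directions of *Junb*, *Jund* and *Btg2*.

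In SP28wk against LP, none of the 5 members and 0.216% of all genes passed the adjusted threshold, and no member beside 8.61% of all genes had an unadjusted P under 0.05. The log2 fold change was 0.83 ± 0.81 for *Jun*, -0.17 ± 1.02 for *Junb* and -0.59 ± 0.79 for *Jund*. The median over the 5 members was -0.59, with 1 above and 4 below 0, and -0.17 over *Jun*, *Junb* and *Jund*, beside 0.18 over all genes. These 3 comparisons share groups, so they are not independent of each other. With 4 against 4 libraries the smallest P of the permutation test is 0.0286, and no member had an exact P under 0.05 in any of the 3 comparisons. When LP 1 was left out, *Zfp36* reached the smallest P of 0.0286 in both comparisons with LP (exact permutation), where all 3 remaining LP libraries had 1 count.

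Genes that stand around these members in the response were described from 2 further lists. The list of 30 other immediate early genes, such as the *Nr4a*, *Klf* and *Dusp* genes, had 25 genes tested in experiment 2 and 16 in experiment 1, and none passed the adjusted threshold in any comparison. Its 3 genes with the highest mean CPM were the same in both experiments. *Ccn2*, a matricellular protein gene induced by growth factors, was at 210 ± 64.6 CPM for SAL and 245 ± 94.5 CPM in PRL (SD, n = 6). *Sgk1*, a kinase that raises sodium transport in the distal nephron, was at 83.0 ± 25.2 CPM in SAL and 129 ± 24.4 CPM in PRL (log2 fold change 0.58 ± 0.24, edgeR adjusted P = 0.882). *Errfi1*, an inhibitor of EGF receptor signaling, averaged 33.1 ± 12.5 CPM in SAL libraries and 45.3 ± 10.7 CPM in PRL libraries. In experiment 1, *Errfi1* had 9 counts in LP, 1 in SP12wk and 19 in SP28wk, with a log2 fold change of 3.36 ± 1.04 in SP28wk against SP12wk (edgeR adjusted P = 0.440).

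In PRL against SAL, 3 genes of that list were higher and 2 lower at an unadjusted P under 0.05, of 25 tested, beside 4.88% of all genes. These 5 are named after their values were seen. *Dusp1*, a phosphatase that switches off MAP kinases, had a log2 fold change of 1.34 ± 0.51 and *Nfkbia*, the inhibitor of NF-κB, one of 0.70 ± 0.33, beside *Sgk1*. *Ier5* and *Socs3*, the latter a feedback inhibitor of cytokine receptors, had -0.99 ± 0.47 and -1.78 ± 0.88. *Dusp1* was at 6.13 ± 3.98 CPM in SAL and 18.6 ± 11.7 CPM in PRL. None of the 5 had an adjusted P in edgeR under 0.688. The median log2 fold change over the 25 genes was 0.29, with 17 above and 8 below 0, whereas that of the members was -0.49, and the difference between the lists was not tested.

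The list of 16 upstream kinases and factors, among them *Srf* and *Creb1*, had 14 genes tested in experiment 2 and 12 in experiment 1. None of them passed the adjusted threshold in a comparison. Of its most abundant genes in experiment 2, *Atf4* was at 77.5 ± 23.3 CPM in SAL and 79.9 ± 19.3 CPM in PRL, *Mapk14* at 27.1 ± 10.7 and 23.0 ± 10.5 CPM, and *Mapk3*, which encodes ERK1, at 25.3 ± 9.58 and 42.1 ± 15.8 CPM. *Mapk3* was the only gene of the list with an unadjusted P under 0.05 in PRL against SAL (log2 fold change 0.77 ± 0.31, edgeR adjusted P = 0.806).

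The members differed in how evenly their counts were spread over the animals of a group. The spread was measured as the chi-square of the counts around the group level per degree of freedom, which is near 1 where only counting error is present and grows with the number of counts where animals differ. In experiment 2 the median over 10696 genes was 1.29. *Egr1* stood at 5.78, and 6.56% of genes were higher. *Jun* stood at 2.94 and *Jund* at 2.37, with 13.6% and 18.9% of genes higher, and *Fosb* at 1.58 was also above the median. *Junb* (0.846), *Btg2* (0.848), *Fos* (1.10), *Ier2* (1.16) and *Zfp36* (1.16) were below it. In experiment 1 the median was 1.12 over 5086 genes, and the members were between 0.437 for *Zfp36* and 1.92 for *Jund*.

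**Figure D4:**
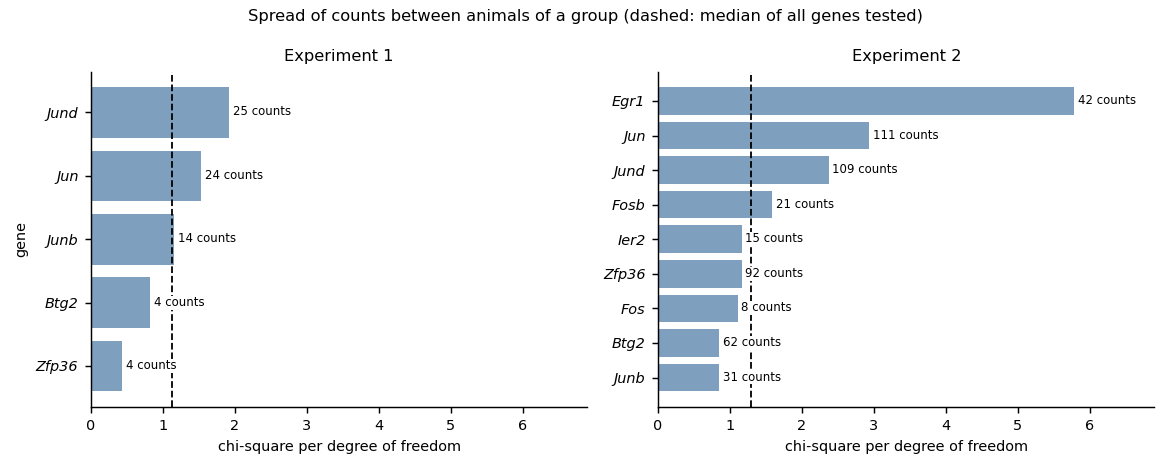
Chi-square per degree of freedom of the counts between animals of a group for each member tested, with its total count printed beside the bar and the median of all genes tested as a dashed line (1.12 in experiment 1 and 1.29 in experiment 2). *Egr1* in experiment 2 had the longest bar, 5.78 from 42 counts.

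To see whether the members were high in the same animals, their levels were correlated over the 12 libraries of experiment 2. The 5 members with a count in at least 10 libraries, *Jun*, *Junb*, *Jund*, *Btg2* and *Zfp36*, gave 10 pairs. The Pearson r of log2(CPM + 2.95) ran from -0.328 to 0.466 with a mean of 0.0679 ± 0.284 (SD over pairs), and 5 of the 10 pairs were above 0. No pair had a permutation P under 0.05, and the smallest Benjamini-Hochberg adjusted P over the 10 pairs was 0.752 for Pearson's r and 0.547 for Spearman's rho. The spread of *Junb*, *Btg2* and *Zfp36* was near that of counting error (chi-square per degree of freedom 0.846, 0.848 and 1.16), which draws r toward 0. A low r therefore cannot show that these genes varied separately between animals.

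The highest r were those between the JUN family genes. *Junb* and *Jund* had r = 0.466 (permutation P = 0.129, adjusted P = 0.752) and rho = 0.573 (permutation P = 0.0547, adjusted P = 0.547). After removal of SAL 6 and PRL 5, whose *Junb* levels were most extreme, their r was 0.508, and it was 0.788 within SAL and 0.431 within PRL (n = 6 each). *Jun* and *Jund* had r = 0.418 and rho = 0.252 (permutation P = 0.177 and 0.433), and r fell to 0.0107 without the 2 farthest libraries, PRL 6 and SAL 3. Without SAL 3 alone, which had 1 count of each gene, r was 0.00584, so that this relation rests on that library. *Jun* and *Junb* had r = 0.359 and rho = 0.266 (permutation P = 0.253 and 0.403), with -0.00691 within SAL and 0.744 within PRL. The lowest r, -0.328, was that of *Junb* and *Zfp36*.

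The members were also placed in a ranking of all genes by r. The top of so long a ranking lies above a few chosen partners almost whatever the data, so it is only described. Of 7947 genes ranked by r with *Junb*, *Jund* was number 915, so that 11.5% of genes were nearer. For *Jun*, *Jund* was number 811 and *Junb* number 1126. The genes nearest to *Jund* were *Mtdh* (r = 0.960), *Acsl1* (r = 0.927) and 2810405F15Rik (r = 0.924). Those nearest to *Jun* were *Peli1* (0.887), *Ppara* (0.870) and *Rcbtb2* (0.860), and those nearest to *Junb* were *Herc1* (0.892), *Ndufb2* (0.881) and *Carns1* (0.876). For *Btg2* the nearest genes were *E2f5* (0.948), *Nop53* (0.931) and *Pex11a* (0.906), and for *Zfp36* they included *Nol12* (0.902) and *Dnase2a* (0.874). No member or other immediate early gene was among these nearest genes, which are the top of a ranking over 12 shared libraries and carry no test.

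Taking in *Fosb*, *Egr1* and *Ier2*, which had counts in at least 9 libraries, was chosen after seeing the data and gave 28 pairs with r between -0.352 and 0.491 and a mean of 0.0968, 17 of them above 0. No pair of these had a permutation P under 0.05 by r or by rho. The highest r was that of *Fosb* and *Btg2* (r = 0.491, rho = 0.0705), and *Egr1* had r between -0.323 with *Btg2* and 0.307 with *Jun*. SAL 1 and SAL 5, the libraries high in *Egr1*, also had the highest SAL levels of *Fos* (5.41 and 6.12 CPM, 2 counts each). Their *Fosb* levels were the highest of SAL too (5.41 and 15.3 CPM, 2 and 5 counts). However, SAL 2 and SAL 4 had 2 *Fosb* counts as well (5.20 and 3.76 CPM). In SAL 1 and SAL 5, *Jun* was at 40.5 and 24.5 CPM, *Junb* at 2.70 and 12.2 CPM and *Zfp36* at 13.5 and 27.5 CPM. Neither library was high in every member. In experiment 1 no member had counts in 10 libraries, and *Jun* and *Jund*, with counts in 9, had r = -0.124 and rho = -0.113 (permutation P = 0.696 and 0.727).

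**Figure D5:**
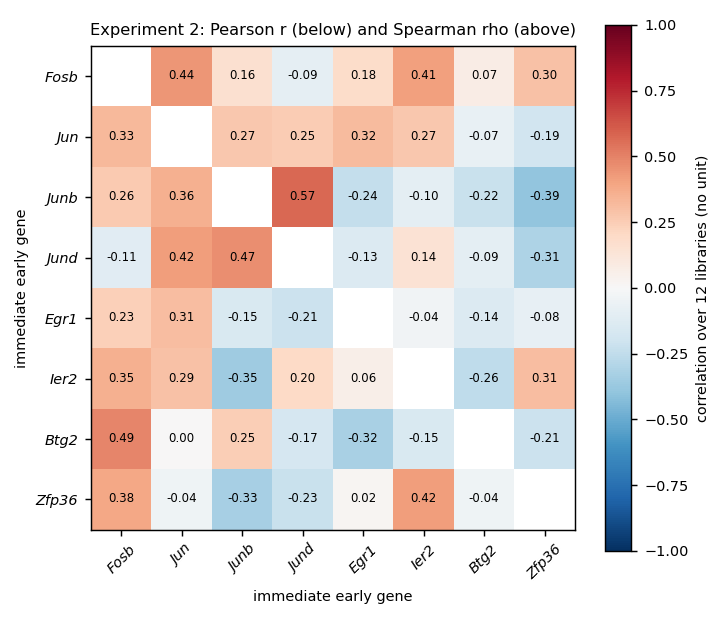
Correlations between 8 immediate early genes over the 12 libraries of experiment 2 on log2(CPM + 2.95), with Pearson's r below the diagonal and Spearman's rho above it, on a color scale from -1 to 1. The r values lie between -0.352 and 0.491 and the rho values between -0.392 and 0.573, and no pair had a permutation P under 0.05.

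Summed over the 10 genes, the level was 63.9 to 165 CPM in SAL (median 107) and 73.7 to 178 CPM in PRL (median 104). SAL 5 and PRL 3 were highest, at 165 and 178 CPM, and SAL 3 and PRL 6 lowest. The sums of the heat shock list over its 12 genes were 3403 to 4119 CPM for SAL and 3278 to 4723 CPM for PRL, and PRL 3, highest in the members, was lowest in heat shock genes at 3278 CPM. Those of the 6 blood genes were 9600 to 18120 CPM in SAL and 8912 to 19498 CPM in PRL, with SAL 1 at 18120 and SAL 5 at 13869 CPM. Closely related globin genes of that list had nearly equal counts, so that its sums may count a read repeatedly. The 6 adipose genes summed to 39.5 to 257 CPM for SAL and 78.0 to 320 CPM for PRL, and SAL 5 had the highest SAL value. The part of blood, adipose tissue and stress in the values of single libraries was not tested. Of 10 proximal tubule markers, 9 had a row in each experiment. All 9 had counts in SAL, in PRL and in each SP group, and 8 had counts in LP. A row requires a count in some library, so this shows detection only and is no test of kidney identity. The marker and stress lists covered heat shock, hypoxia, injury, blood, proximal tubule, distal and collecting duct, glomerulus and endothelium, immune, adipose, and muscle and adrenal genes. No tested gene of these lists passed the adjusted threshold in any comparison, beside 0% to 0.216% of all genes. In experiment 1 no gene of the immune or the muscle and adrenal list was tested, and only 1 adipose and 2 injury genes were.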

How the data were processed

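Kidney RNA of 24 hamsters was sequenced as cDNA on nanopore flow cells, 1 for each experiment. The authors basecalled with Guppy, trimmed with Porechop, filtered with Filtlong and aligned with Minimap2 to the mouse genome, and the submitters' processing notes also name Salmon. The deposited values are estimated counts for mouse RefSeq transcripts without scaling. The sources used here do not give how a read was shared among transcripts. The methods name a direct cDNA kit and the labels a PCR-cDNA kit with the same catalogue numbers.

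For each gene the transcript with the highest total was taken, since summing over transcripts can count a read repeatedly. CPM was relative to the library total of these rows. In R 4.3.3, rounded counts of all genes were fitted with the quasi-likelihood test of edgeR 4.0.16 (TMM scaling, 1 model per experiment, no covariate). The filter kept genes with counts in 4 or more of the 12 libraries of experiment 1 and 6 or more of those of experiment 2. Adjusted P values are Benjamini-Hochberg over all genes. SE is the log2 fold change over the square root of F. Differences in mean CPM were tested by two-sided exact permutation. Correlations used the log2 of CPM plus 2.95 CPM, with 100000 permutations. Intervals (95%) of single CPM values and of ratios of pooled counts, and the limit of 3 counts for a gene at 0, cover counting error only, whereas fold intervals from edgeR include the spread between animals. Scripts were tested on simulated data.

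Alternatives were sums over transcripts, no or a stricter filter, DESeq2 1.42.0, limma-voom (limma 3.58.1), a replicate block, TMM-scaled CPM, other pseudocounts and leaving out each library. The members were named, with any gene called in a list and the 3 with the highest mean CPM of the lists of other immediate early genes and, in experiment 2, of upstream kinases and factors, and for each member with counts in at least 10 libraries the 3 genes with the highest r. The rule also took the 3 most abundant genes of the marker and stress lists and of the upstream list in experiment 1, which are given only as sums or counts of calls. Genes named beyond this are marked, and a gene that the rule takes is not reported here. The members and lists were chosen with earlier results of these data known. Each library is labelled as a separate sample.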

Additional observations from a re-analysis of the deposited data

Results flagged for a closer look

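In 8 of 37 groups of 4 or 6 libraries with any count of a member, 1 library stood apart by Dixon's test at 95%, which chance does in about 1 group of 20 for values that vary evenly. *Fosb* in SAL was the only one of them with counts in several libraries. It was at 15.3 CPM in SAL 5, from 5 counts, and between 0 and 5.41 CPM in the other SAL libraries. In the other 7 groups a single library had a count, so that the gap equals the range by construction. In experiment 1 these were *Fosb* in SP28wk 4 (17.4 CPM, 1 count), *Egr1* in SP12wk 4 (28.3 CPM, 1 count) and in SP28wk 3 (57.1 CPM, 2 counts), *Btg2* in SP12wk 4 (28.3 CPM, 1 count) and in SP28wk 3 (28.6 CPM, 1 count), and *Zfp36* in SP28wk 4 (17.4 CPM, 1 count). In experiment 2 it was *Atf3* in SAL 1 (2.70 CPM, 1 count). The *Egr1* values of SAL 1 and SAL 5 were not marked by this test, since 2 high libraries lie near each other.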

How the results depend on the processing

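No immediate early gene that was tested passed an adjusted P of 0.05 in any comparison under any of the 60 alternatives run. In PRL against SAL, DESeq2 gave the members no adjusted P, so that it could call none. In experiment 1 the stricter filter tested only 2 members. The mean r over the 10 pairs was between 0.0134 and 0.122 over all its alternatives, with 0.0473 for sums over transcripts, beside 0.0679. The number of all genes called moved. SP12wk against LP gave 1, but 0 with sums over transcripts, no filter, the stricter filter, DESeq2, limma-voom and the replicate block, and 0 to 8 leaving out a library. SP28wk against SP12wk gave 7, 0 with sums, 2 with the stricter filter and with DESeq2, and 2 to 8 leaving out a library. SP28wk against LP gave 11, 0 with sums, 5 with the stricter filter, 2 with DESeq2, 30 with limma-voom, and 8 to 54 leaving out a library. PRL against SAL gave 0, but 1 with sums, 92 with no filter, 94 with the replicate block, and 0 to 44 leaving out a library.

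The labels do not say whether replicate numbers mark anything shared between groups. Correlations of deviations between same-numbered libraries were -0.0953 to 0.206 (median 0.0211) in experiment 1 and -0.181 to 0.237 (median 0.0636) in experiment 2. Between libraries with different numbers they were -0.213 to 0.211 (median -0.0167) and -0.237 to 0.214 (median 0.00703). So few pairs cannot exclude pairing, and the main fit used none. With the replicate block, the log2 fold change of *Jund* in PRL against SAL was 0.0239.

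Directions of low members turned, among them fitted values of *Btg2* and *Zfp36* in experiment 1, which depend on the prior count and are no measured folds. In PRL against SAL, *Jun* had a log2 fold change of -0.0702 and *Jund* 0.14 with limma-voom, *Jund* differed by -0.437 CPM with TMM scaling, and leaving out a library gave log2 values of -0.28 to 0.25 for *Jun*, -0.30 to 0.22 for *Jund* and -0.0090 to 0.72 for *Ier2*, and CPM differences of -1.45 to 0.108 for *Fos*, -2.72 to 8.01 for *Jun* and -2.58 to 7.39 for *Jund*. In SP28wk against SP12wk, *Jund* had -0.35 with sums and -0.31 with DESeq2, *Zfp36* -0.0306 with limma-voom and *Btg2* -0.0414 CPM with sums. Leaving out a library there gave log2 values of -0.28 to 1.27 for *Junb*, -0.71 to 1.14 for *Jund* and -0.60 to 0.17 for *Btg2*, and CPM differences of -7.63 to 15.5 for *Junb*, -47.4 to 19.5 for *Jund*, -7.06 to 7.14 for *Btg2* and 0 to 5.79 for *Zfp36*. Against LP, the log2 value of *Junb* was -1.50 to 0.12 in SP12wk and -0.95 to 0.57 in SP28wk, and the SP28wk differences were -14.7 to 43.2 CPM for *Jun* and -55.9 to 0.205 CPM for *Junb*. The cause was not tested.

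TMM placed the median of all genes at 0.16 in SP28wk against SP12wk and at 0.18 in SP28wk against LP. DESeq2 gave no adjusted P for the members in PRL against SAL. The stricter filter left 2 members in experiment 1 and 3 in experiment 2. A single count was worth 17.4 to 63.7 CPM in experiment 1, and smaller levels were not detectable in a library there.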
